A study of Mus musculus with 6 samples.

Results

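The 10 glycosphingolipid core synthesis enzymes described here are the transferases that put the first sugars, and a sulfate, on ceramide. They were taken by name from a list, and each was measured by 1 probe set, so they account for 10 of the 909 named genes and 10 of the 1246 probe sets on a focused glycan gene array. The samples were 3 of liver total RNA from male mice with insulin-deficient diabetes and 3 from healthy wildtype males, each on its own array. The design text speaks of mice in these numbers, but no label states that every sample came from a separate animal, so n counts arrays throughout. The series asks whether enzymes of glycan synthesis, above all those of glycosaminoglycans, differ between such livers. The sources used here state no strain or age and do not say how the diabetes came about.

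Glycosphingolipids are ceramides that carry a sugar chain on the outer face of the plasma membrane. Ugcg adds glucose to ceramide, B4galt5 or B4galt6 then adds galactose to give lactosylceramide, and from there the path divides: St3gal5 and B4galnt1 lead to the gangliosides, A4galt to the globo series and B3gnt5 to the lacto series. A separate and shorter path starts with Ugt8a, which adds galactose in place of glucose, and ends with the sulfatide that Gal3st1 makes. Gangliosides made from lactosylceramide have been studied as modulators of insulin receptor signalling.

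Signals were RMA values on the log2 scale, and they are placed here against the median of all probe set means. Probes bind with different strengths and these values are not per length, so an order among genes is an order of signals and not of transcript amounts. B4galt5 and B4galnt1 gave the brightest signals, with means over the 6 arrays of 8.36 and 8.22, above 87.9% and 86.5% of probe sets. They did not differ beyond their spread, since B4galt5 was above B4galnt1 on 3 of 6 arrays. Ugcg followed at 7.35, then Gal3st1 at 5.78 and B3galt4 at 5.31, each lower than the one before on 6 of 6 arrays. The other 5 enzymes lay below the median, at 3.37 for A4galt, 3.36 for B4galt6, 2.96 for B3galnt1, 2.75 for B3gnt5 and 2.59 for Ugt8a. Among these, A4galt and B4galt6 did not differ beyond their spread (A4galt was above on 4 of 6 arrays), and B3galnt1 was above B3gnt5 on 5 of 6.

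**Figure D1:**
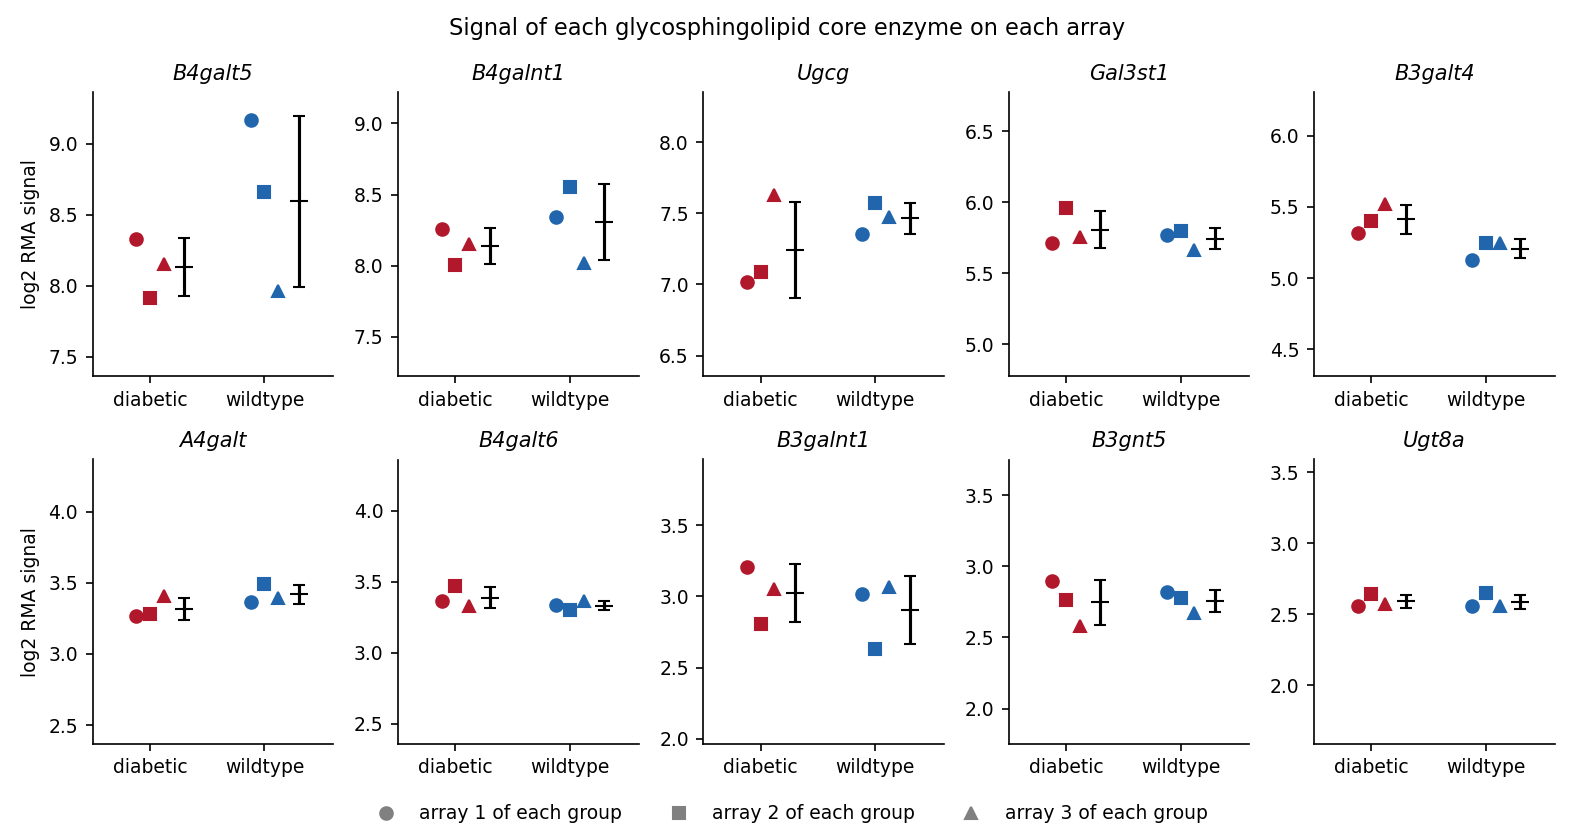
Each panel shows the log2 RMA signal (vertical axis, 2 log2 units high in every panel) of 1 enzyme on the 3 diabetic and 3 wildtype arrays, with marker shapes for the array numbers and the mean ± SD beside the points. The panels run from the brightest signal, B4galt5, to the dimmest, Ugt8a. B3galt4 is the 1 enzyme whose groups do not overlap, and B4galt5 has the widest spread.

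No enzyme passed the test between diabetic and wildtype livers, which was limma over all probe sets with an adjusted p threshold of 0.05. That is 0 of 10, where the same rule called 0.321% of all probe sets, and 0 of 10 had an unadjusted p under 0.05, where 2.97% of all probe sets did. Of the 10 means, 5 were higher and 5 lower in diabetic liver. The median difference was -0.003 on the log2 scale, beside 0.002 over all probe sets, and the median size of a difference was 0.11, beside 0.087. For 6 of the 10 the 95% confidence interval lay within 0.5 of 0 in both directions, and for 9 of 10, all but B4galt5, it lay within 1. No detection call was used, so none of the 10 signals was told apart from background, and the median of the probe sets is not a detection threshold. That holds also for B3galt4 and Gal3st1, which lay nearest above the median. For the 5 dim enzymes a narrow interval does not bound a change in transcript.

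The first 2 steps gave the lowest differences. Ugcg, which makes glucosylceramide and so opens the path to nearly all liver glycosphingolipids, had signals of 7.01, 7.09 and 7.63 on the diabetic arrays, against 7.35, 7.57 and 7.47 on the wildtype arrays. Diabetic 1 and 2 lay below every wildtype array and diabetic 3 above every one. Diabetic arrays averaged 7.24 ± 0.34 and wildtype arrays 7.47 ± 0.11 (SD, n = 3 each), a log2 difference of -0.22 (SE 0.17, limma adjusted p = 0.928). The difference was -0.42 without diabetic 3 and -0.11 without diabetic 1. Its probe set carries a suffix for probes shared by several transcripts.

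Diabetic 3, the array with the highest Ugcg signal, also had the highest signals for the macrophage markers Csf1r, at 7.50 against 6.23 to 6.85 on the other arrays, and Adgre1, at 5.18 against 3.81 to 4.32. Mrc1 and Siglec1 were also highest there, at 7.28 and 4.88. Cd74 was instead highest on wildtype 3, at 7.94 against 7.31 on diabetic 3, and Clec4f on diabetic 2, at 6.07. Over the 6 of 8 macrophage markers measured, the summed linear signal was 363, 395 and 627 on the diabetic arrays and 411, 426 and 611 on the wildtype arrays. The 6 markers split evenly, with 3 higher and 3 lower means in diabetic liver. Whether macrophage content had a part in the Ugcg values was not tested. In bulk tissue, fewer cells of a type and less RNA per cell cannot be told apart.

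B4galt5, the main lactosylceramide synthase of most mouse tissues, had the largest difference of the 10. Its signals were 8.33, 7.92 and 8.15 on the diabetic arrays, against 9.16, 8.66 and 7.97 on the wildtype arrays. Wildtype 1 and 2 lay above all diabetic arrays, while wildtype 3 lay among them, so the groups overlapped. Diabetic arrays averaged 8.13 ± 0.21 and wildtype arrays 8.60 ± 0.60 (SD, n = 3 each), a difference of -0.46 (SE 0.30, 95% confidence interval -1.18 to 0.25, limma adjusted p = 0.928), or 0.725-fold. The exact two-sided permutation p was 0.3, where 3 arrays against 3 cannot go below 0.1. Without wildtype 3 the difference was -0.78, and without wildtype 1 it was -0.18. Over the 6 arrays the highest B4galt5 signal was 2.37-fold the lowest, and no other core enzyme spread as widely.

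B4galt6, the other lactosylceramide synthase, stayed between 3.30 and 3.47 on all 6 arrays. Its difference was 0.06 (SE 0.08, limma adjusted p = 0.975), or 0.013 without diabetic 2.

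Regions upstream of 4 enzymes are shown because they set the brightest signal, B4galt5, beside the dimmest, Ugt8a, with Ugcg as the first step and B3galt4 as the enzyme whose groups did not overlap. Each line gives the 150 bases upstream of the outermost annotated transcript start, written 5′ to 3′ on the gene's own strand, from RefSeq on GRCm38.p6. They lie at chr4:59189357-59189506 (+) for Ugcg, chr2:167349179-167349328 (-) for B4galt5, chr17:33951489-33951638 (-) for B3galt4 and chr3:125938683-125938832 (-) for Ugt8a. The stretches of B4galt5 and B3galt4 end right at the start that the promoter table uses, while that of Ugcg ends 43 bases and that of Ugt8a 30 bases before it. Capitals mark the GC box GGGCGG or its reverse complement CCGCCC, the core letters that Sp1 family factors bind, and adjoining capitals can be overlapping matches.
Ugcg: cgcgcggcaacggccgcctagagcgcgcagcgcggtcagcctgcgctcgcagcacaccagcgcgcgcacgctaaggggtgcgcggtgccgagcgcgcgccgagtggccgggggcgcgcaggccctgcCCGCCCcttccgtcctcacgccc
B4galt5: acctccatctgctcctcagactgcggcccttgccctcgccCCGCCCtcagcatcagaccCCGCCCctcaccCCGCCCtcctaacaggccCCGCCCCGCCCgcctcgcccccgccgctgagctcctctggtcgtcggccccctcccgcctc
B3galt4: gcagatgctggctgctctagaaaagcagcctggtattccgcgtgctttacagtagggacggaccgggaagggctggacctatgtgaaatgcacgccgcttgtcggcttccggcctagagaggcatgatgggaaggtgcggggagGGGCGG
Ugt8a: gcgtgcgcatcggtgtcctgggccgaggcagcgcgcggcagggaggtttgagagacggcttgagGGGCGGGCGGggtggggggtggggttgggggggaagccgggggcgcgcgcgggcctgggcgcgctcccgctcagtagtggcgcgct

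The 4 stretches thus lie at different distances from the start, and counts are given for windows placed alike, of 300 bases (250 before the table's start and 50 after it). There the GC box occurred 7 times for B4galt5, 3 times for Ugt8a, 2 times for Ugcg and 1 time for B3galt4. CpG dinucleotides numbered 31 for B4galt5 and 20 for B3galt4. Ugcg held 53 and Ugt8a 40, more than 99.5% and 96.1% of the 32851 mouse promoters compared, whose median was 7. The promoters of 1 chromosome were left out of that set. A GC box on either strand was found in 35.7% of those promoters, and in none of the 3 windows of Gal3st1, 2 of which overlap. Of the 10 enzymes 8 had an entry in that set, each with at least 1 annotated start above that median. By its highest start the lowest was B3gnt5 with 9. Of the 3 windows of Gal3st1, 1 lay below the median of 7, with 2 CpG dinucleotides. None of these entries held TATAAA on either strand, which 13.6% of the promoters compared did. B4galt6 and B4galnt1 had no entry in the reduced set, which does not show that they lack an annotated start.

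Among the ganglioside enzymes, B4galnt1 and B3galt4 follow each other on the path and their differences had opposite signs. B4galnt1, which adds N-acetylgalactosamine to make GM2 and related gangliosides, had signals of 8.260, 8.002 and 8.151 on the diabetic arrays, against 8.344, 8.554 and 8.019 on the wildtype arrays. As for B4galt5, wildtype 1 and 2 lay above all diabetic arrays and wildtype 3 did not. Diabetic arrays averaged 8.14 ± 0.13 and wildtype arrays 8.31 ± 0.27 (SD, n = 3 each), a difference of -0.17 (SE 0.15, limma adjusted p = 0.942). It was -0.044 without wildtype 2 and -0.31 without wildtype 3.

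B3galt4, which adds galactose to GM2 to make GM1, was the 1 core enzyme whose groups did not overlap. Its signals were 5.32, 5.40 and 5.52 on the diabetic arrays, against 5.13, 5.25 and 5.25 on the wildtype arrays, with every diabetic array above every wildtype array. Diabetic arrays averaged 5.41 ± 0.10 and wildtype arrays 5.21 ± 0.07 (SD, n = 3 each). The difference was 0.21 (SE 0.09, 95% confidence interval -0.004 to 0.41), or 1.15-fold, with an unadjusted p of 0.0532 and a limma adjusted p of 0.928. The exact permutation p was 0.1, the smallest that 3 arrays against 3 allow. Groups that did not overlap, with diabetic liver higher, were found for 4.57% of all probe sets, the opposite case for 3.29% and either for 7.87%, so 1 of 10 higher and 0 of 10 lower is near the background. Leaving out 1 array gave differences between 0.15 and 0.25.

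**Figure D2:**
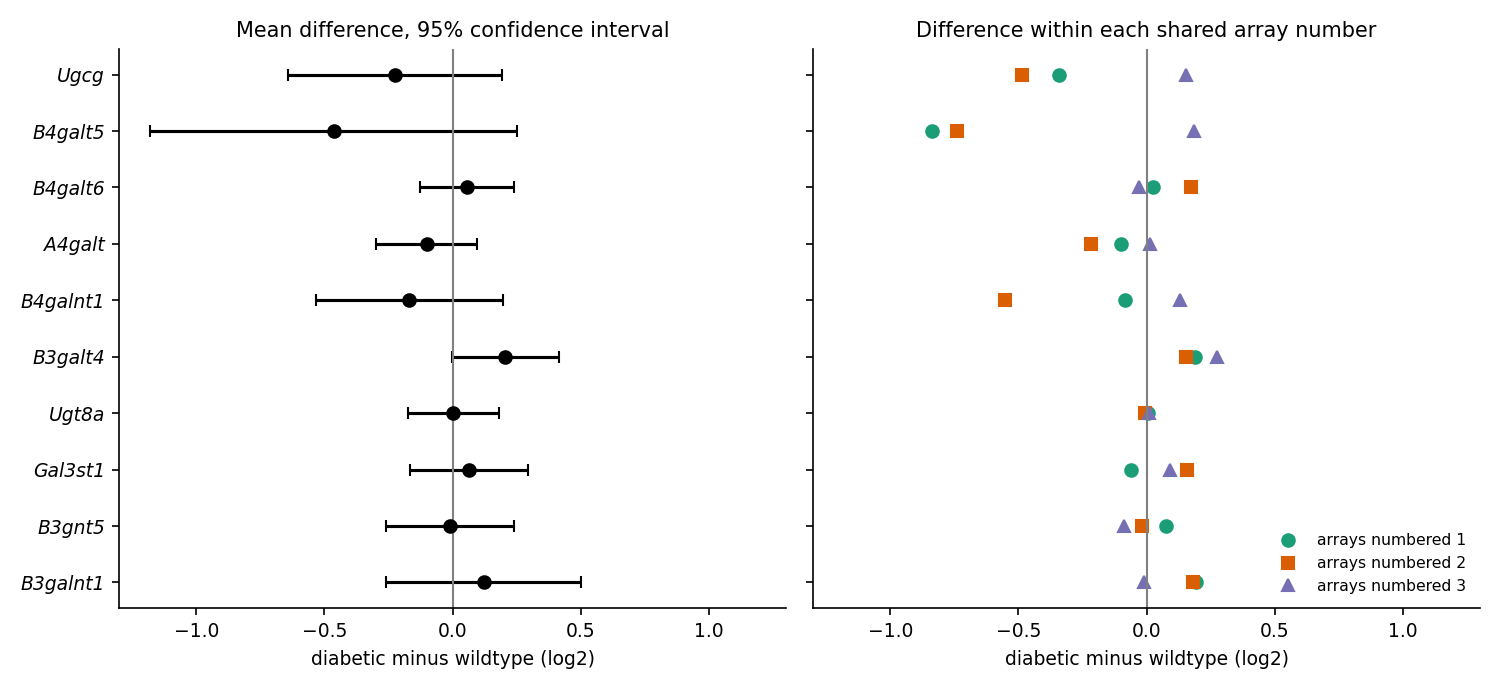
The enzymes are in the order of the list they were taken from, with Ugcg at the top and B3galnt1 at the bottom. For each, the left panel gives the mean log2 difference of diabetic minus wildtype with its 95% confidence interval. The right panel gives the difference between the diabetic and the wildtype array of the same number. All 10 intervals include 0. Ugcg, B4galt5, A4galt and B4galnt1 lie below 0 for the arrays numbered 1 and 2 and above 0 for those numbered 3.

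Both groups use the array numbers 1 to 3, so each difference can also be read within a number. For B4galt5 they were -0.84, -0.74 and 0.18 for the arrays numbered 1, 2 and 3. For Ugcg they were -0.34, -0.48 and 0.15, and for B4galnt1 -0.085, -0.55 and 0.13. B3galt4 had 0.19, 0.15 and 0.27, so its diabetic array was higher at all 3 numbers. With the number as a block, limma called 0 of the 10 enzymes, and the lowest adjusted p among them was 0.822. In that blocked limma fit 1 of 10, B3galt4, had an unadjusted p under 0.05, at 0.0491 against 0.0532 without the block, where 4.33% of all probe sets were under it.

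St3gal5, the enzyme that adds sialic acid to lactosylceramide to make GM3, stands between B4galt5 and B4galnt1 on this path. Its signals were 10.95, 10.28 and 11.29 on the diabetic arrays, against 10.10, 9.25 and 11.55 on the wildtype arrays. The wildtype arrays held both the highest and the lowest value, and the difference of 0.54 (limma adjusted p = 0.942) was 0.015 without wildtype 2 and 1.16 without wildtype 3. Wildtype 3 was thus high for St3gal5 where it was the lowest wildtype array for B4galt5 and B4galnt1. Wildtype 2 stood apart over the whole array, with 40 probe sets more than 0.5 above or below every other array, against 1 to 21 on the others.

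**Figure D3:**
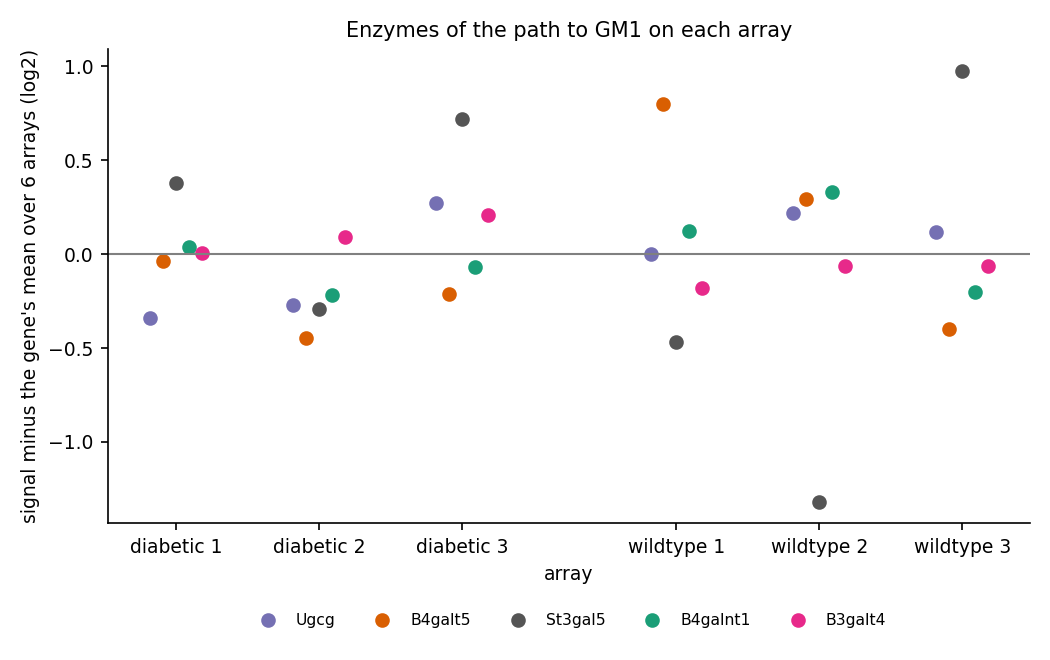
For each of the 6 arrays (horizontal axis) the points give the log2 signal of 5 enzymes on the path from ceramide to GM1, each minus its own mean over the 6 arrays. St3gal5 and B4galt5 vary most, and wildtype 3 has St3gal5 high with B4galt5 low.

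The globo and lacto branch enzymes were all dim. A4galt, which starts the globo series by making Gb3, had 3.27, 3.28 and 3.41 on the diabetic arrays, against 3.37, 3.50 and 3.40 on the wildtype arrays. Diabetic 3 lay among the wildtype arrays, and the difference was -0.10 (SE 0.08, limma adjusted p = 0.928), or -0.063 without wildtype 2. B3galnt1, which extends Gb3 to globoside, ranged from 2.81 to 3.21 on the diabetic arrays and from 2.63 to 3.07 on the wildtype arrays, a difference of 0.12 (limma adjusted p = 0.975) that was -0.017 without wildtype 2. B3gnt5, which starts the lacto series, differed by -0.009 (limma adjusted p = 0.990), with 2.90, 2.76 and 2.58 on the diabetic arrays and 2.82, 2.78 and 2.67 on the wildtype arrays.

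On the galactosylceramide path, Ugt8a, best known from myelin-forming cells, had 2.56, 2.64 and 2.57 on the diabetic arrays and 2.56, 2.65 and 2.56 on the wildtype arrays. It had the smallest spread of the 10, with the highest array 1.07-fold the lowest, and it lay above 3.93% of probe sets. Gal3st1, which sulfates galactosylceramide and also lactosylceramide, had 5.71, 5.96 and 5.75 on the diabetic arrays, against 5.77, 5.80 and 5.66 on the wildtype arrays. The groups overlapped and the difference was 0.06 (SE 0.10, limma adjusted p = 0.975). It was -0.012 without diabetic 2. The Gal3st1 probe set, too, carries the suffix for probes shared by several transcripts.

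Among the genes that supply the sugars and sulfate, Papss2 was the 1 of 14 measured that passed the test. It makes PAPS, the sulfate donor that Gal3st1 and other sulfotransferases use, and had 10.61, 10.52 and 10.44 on the diabetic arrays, against 9.51, 9.68 and 9.79 on the wildtype arrays. It rose by 0.87 on the log2 scale in diabetic liver (SE 0.10, limma adjusted p = 0.0412), but with the array number as a block the adjusted p was 0.215. Papss2 passed in none of the 6 fits that left out 1 array. Of the 14, 7 had higher and 7 lower means, with a median of 0.03. Ugp2, which makes the UDP-glucose that Ugcg uses, had 9.75, 9.53 and 9.32 on the diabetic arrays, against 9.06, 8.58 and 8.66 on the wildtype arrays. The groups did not overlap, but the difference of 0.77 did not pass (limma adjusted p = 0.619). Galk1, a galactokinase, differed by 0.37 (0.15 without diabetic 1), and Slc35a2, the Golgi UDP-galactose transporter, by 0.08 (0.12 without wildtype 3 and 0.032 without wildtype 1), with 0.002 at its dimmer probe set.

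Of 12 genes for glycolipid breakdown reported here, 8 had higher and 4 lower means in diabetic liver and 0 passed. The median difference was 0.15, beside 0.003 over all 909 named genes. The mean log2 signal of the 12 was 7.58, 7.61 and 7.72 on diabetic 1, 2 and 3. It was 7.59, 7.61 and 7.35 on wildtype 1, 2 and 3, so of the wildtype arrays only wildtype 3 lay below the diabetic arrays. Neu1, a lysosomal sialidase, had 8.07, 8.09 and 8.05 on the diabetic arrays, against 7.88, 7.93 and 7.75 on the wildtype arrays, a difference of 0.21 (limma adjusted p = 0.928). Gla, the alpha-galactosidase that breaks down Gb3, had 6.35, 6.50 and 6.49 on the diabetic arrays, against 6.23, 6.34 and 6.18 on the wildtype arrays. For both genes every diabetic array lay above every wildtype array, and Gla differed by 0.20 (limma adjusted p = 0.928).

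The other breakdown genes overlapped between the groups. Glb1, the beta-galactosidase that degrades GM1, differed by 0.35 (0.17 without wildtype 3) and Galc, which degrades galactosylceramide, by 0.21 (0.089 without diabetic 3). Gm2a, the activator protein for GM2 breakdown, differed by 0.17 (0.27 without wildtype 1), and Hexa, a hexosaminidase subunit, by -0.002 (0.082 without wildtype 2). Arsa, which removes the sulfate from sulfatide, differed by -0.18, with 0.11 without wildtype 2 and -0.36 without wildtype 3, and the membrane sialidase Neu3 by -0.02 at a dim probe set (0.059 without wildtype 1).

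Of the 9 ganglioside sialyltransferases, 7 had higher and 2 lower means, with a median of 0.02 and 0 passing. St6galnac3 had 3.58, 3.69 and 3.56 on the diabetic arrays, against 3.98, 3.89 and 3.77 on the wildtype arrays, with no overlap between the groups. Its signal was dim and the difference of -0.27 did not pass (limma adjusted p = 0.928). St8sia1, which makes GD3, differed by 0.09 (0.051 without diabetic 3 and 0.14 without diabetic 2) and St6galnac5 by 0.11 (0.055 without diabetic 1 and 0.18 without diabetic 3), both at dim probe sets.

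Of 19 measured relatives of the core enzymes in the same transferase families, 7 had higher and 12 lower means, with a median of -0.02 and 0 passing. The 3 with the smallest p, all below the median probe set, were B4galnt2, B4galnt4 and B4galnt3. B4galnt2 differed by -0.24 (-0.14 without diabetic 3), B4galnt4 by -0.19 (-0.098 without wildtype 2) and B4galnt3 by -0.17. Only for B4galnt4, just below that median at 4.95, did the groups not overlap, with diabetic liver lower. B4galt1, the most studied galactosyltransferase of this family, differed by -0.35 (limma adjusted p = 0.928), with -0.57 without diabetic 3 and -0.23 without wildtype 1. Of 9 genes that extend the cores, 5 had higher and 4 lower means, with a median of 0.03 and 0 passing. The 3 smallest p there belonged to the fucosyltransferases Fut9, Fut2 and Fut7, at 0.16, 0.10 and 0.10, with -0.15 at the dimmer probe set of Fut2. Fut2 differed by 0.037 without wildtype 1 and 0.16 without wildtype 2, and Fut7 by 0.029 without diabetic 2 and 0.15 without diabetic 3. The groups did not overlap for Fut9, with diabetic liver higher at a dim probe set. Of the 63 measured genes in all these lists, 7 had groups that did not overlap, 5 higher and 2 lower, where 7.87% of all probe sets did.

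**Figure D4:**
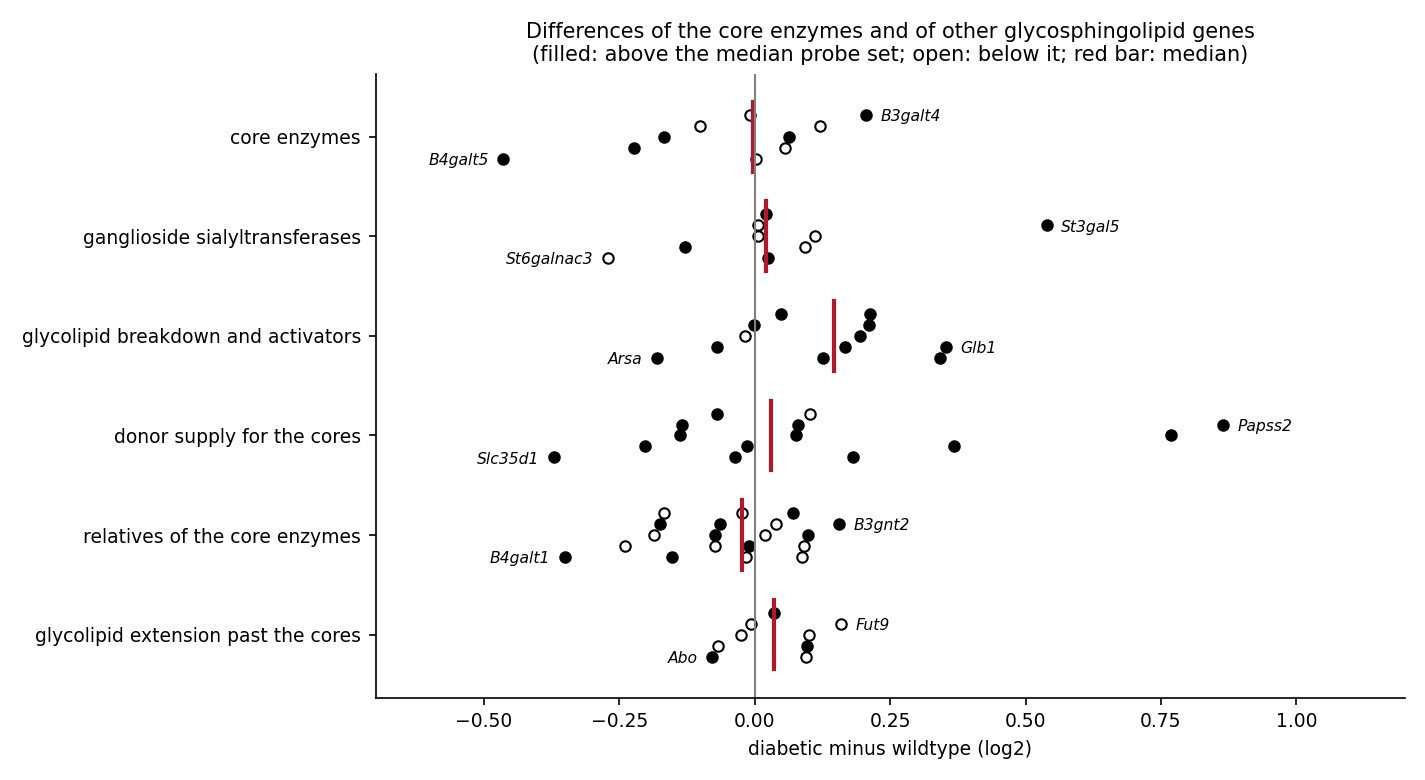
Each point is the log2 difference of diabetic minus wildtype for 1 gene, with a row for the core enzymes and for each group of related genes. Filled points lie above the median probe set, open points below it, and the red bar is the median of the row. The core enzymes run from -0.46 for B4galt5 to 0.21 for B3galt4, and Papss2 lies farthest to the right at 0.87.

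The genes whose pattern over the 6 arrays was most like that of each brighter core enzyme are given as a description, since with 909 genes and 6 arrays high correlations arise readily. For Ugcg they were Il6st, the signal-transducing receptor subunit of the interleukin-6 family (Pearson r = 0.980), and Csf1, the macrophage growth factor (0.980). For B4galt5 they were the Golgi GDP-fucose transporter Slc35c1 (0.980) and Wnt5a (0.975), and for B4galnt1 Klrb1f (0.973) and Alg1, a mannosyltransferase of N-glycan assembly (0.964). Like B4galt5, Slc35c1 was highest on wildtype 1, at 8.50, and next on wildtype 2, at 7.89, against 7.48 to 7.70 on the other arrays. For B3galt4 they were Slc35f2 (0.958) and the chemokine Ccl1 (0.951), and for Gal3st1 the Wnt receptor Fzd8 (0.982) and the dermatan sulfate gene Dsel (0.975). Klrb1f (2.88 to 3.02), Dsel (2.72 to 2.99), Wnt5a, Slc35f2 and Ccl1 lay below the median probe set. With no detection call, their signals were not told apart from background. Between the brighter core enzymes themselves, r ran from -0.69 for B4galt5 with B3galt4 to 0.78 for B4galt5 with B4galnt1.

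The arrays carried the marks of liver. The hepatocyte lectin receptor Asgr1 ranged from 12.27 to 12.36 on the diabetic arrays and from 12.19 to 12.46 on the wildtype arrays, and all 7 measured of 10 hepatocyte markers lay above the median probe set. These markers were not all steady between the groups: 4 had higher and 3 lower means in diabetic liver, and 1, the secreted lectin Mbl2, passed. Mbl2 rose by 1.03 on the log2 scale (limma adjusted p = 0.0412, but 0.142 with the array number as a block), and its groups did not overlap. Igfbp1, an insulin-repressed IGF-binding protein, differed by 2.74 with overlapping groups, and Igfals by -0.61 with none (limma adjusted p = 0.928 for both). The summed linear signal of the 7 ran from 16259 to 18212 on the diabetic arrays and from 11802 to 14817 on the wildtype arrays. This sum includes Mbl2 and Igfbp1 with their higher diabetic means, while Asgr1 differed by -0.003 and Asgr2 by 0.02. The part of the sum in the enzymes' values was not tested. Of the markers of other cell types, 4 of 6 macrophage, 2 of 4 endothelial and 1 of 3 lymphocyte genes lay above the median probe set. So did 2 of 3 stellate or fibroblast genes and 1 of 1 cholangiocyte genes, and 0 of the markers of these other cell types passed the test. The number of arrays limited the precision, with a median SE of 0.11 (log2) over all probe sets.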

How the data were processed

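The deposited table gives 1 value per probe set and array. Per the submitters' processing notes the authors made the values with RMA (version and settings not given in the sources used here), and they were treated as log2 values because they ran from 2.03 to 13.45, with array medians from 4.93 to 5.06. Since the authors had already normalized the arrays to each other, a shift common to most genes would not show. RefSeq accessions in the probe set names gave symbols for 963 of 1246 probe sets and 909 genes through a RefSeq table of GRCm38.p6. For a gene with several probe sets the one with the highest mean was used.

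The groups were compared with limma 3.58.1 in R 4.3.3 (lmFit, eBayes, Benjamini-Hochberg over all 1246 probe sets), on differences of diabetic minus wildtype. The fit was tested on simulated data with noise independent between arrays, so that test does not bear on pairing by array number. The labels do not say that each array came from a separate animal, so p-values measure the spread between these samples, which may be technical. Deviations of arrays sharing a number correlated at 0.397, 0.138 and 0.162, each over the limit of 0.1 for treating numbers as pairs. What a number stands for is not given in the labels. The main fit was planned without a block for the number, and the blocked fit is given beside it.

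The core enzymes, the lists and the tests were chosen with earlier results of these data known. Named were all core enzymes, the 3 genes of each list with the smallest p, a set of pathway genes, and the 2 genes most like each brighter enzyme. Alternatives were median and quantile normalization, no dim probe sets, eBayes with trend and robust, array weights, no moderation, a threshold of 0.10, a fit with the replicate block, and each array left out in turn. Other probe sets of a core enzyme could not be tried, as each enzyme has 1. In the breakdown list 1 gene is not reported here and was left out of its counts.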

Additional observations from a re-analysis of the deposited data

How the results depend on the processing

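In 0 of the fits did a core enzyme pass the threshold. The count of probe sets called was 4; it was 0 for each of the trended robust eBayes fit, the fit without moderation and the replicate block, and it ran from 0 to 1 with 1 array left out. The count of other glycosphingolipid genes called was 1, Papss2, and was 0 in those same 3 fits and in all fits with 1 array left out (0 to 0). The replicate block also removed the call of the hepatocyte marker Mbl2 (limma adjusted p = 0.142 with the block). Of the 10 core enzymes 6 kept the sign of their difference in all 6 fits with 1 array left out. The signs of the other 4 turned: Ugt8a ran from -0.022 to 0.033, Gal3st1 from -0.012 to 0.11, B3gnt5 from -0.084 to 0.073 and B3galnt1 from -0.017 to 0.23. Quantile normalization turned Ugt8a to -0.046. The cause of these changes was not tested, beyond there being fewer arrays. Without the dimmer probe sets 5 of the 10 enzymes remained in the fit. With no detection call, signal over background limits all core enzymes, and the 5 dim ones most.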
